A study of Brassica rapa subsp. pekinensis with 4 samples.

Results

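Plants read light through phytochromes, cryptochromes, phototropins and the UV-B receptor UVR8, and pass the signal on through a small set of shared regulators. Here the genes of *Brassica rapa* that match 25 Arabidopsis loci of this pathway were followed in shoots of Chinese cabbage before and after vernalization, the long cold period that makes the plant competent to flower. The loci are the phytochromes PHYA to PHYE, CRY1 and CRY2, PHOT1 and PHOT2, UVR8, COP1, SPA1 to SPA4, PIF1, PIF3, PIF4, PIF5 and PIF7, HY5, HYH, FHY1, FHY3 and FAR1. A gene was included when the Arabidopsis match given beside its Bra identifier was a listed locus. The rule read no counts, while the list of loci was drawn up with earlier results of these data known. This gave 42 Bra genes, called copies here, of the 36698 genes in the count tables. Of the 25 loci, 9 had 1 copy, 12 had 2, 3 had 3, and PHYD (AT4G16250) had none.

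The libraries came from shoots of “4004”, an early-bolting inbred line. The 0D Ver group (2 libraries) stood at 23 °C under days of 16 h light and 8 h dark and received no cold, and by the labels its plants were 2 weeks old. The 35D Ver group (2 libraries) then spent 35 days at 5 °C with 12 h of light and 12 h of dark, and its plants were 7 weeks old by the labels. Each library pooled the shoots of several plants, and the study's methods place the harvest at the same point of the light and dark cycle. The groups therefore differed in cold, in day length and in age, and these cannot be told apart. Replicates 1 and 2 of each group were analysed, while another replicate of this line and the line “50” were not analysed here.

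In Arabidopsis, red light turns phytochromes into an active form that enters the nucleus, where it triggers the removal of PIFs, the bHLH factors that promote elongation growth in the dark and in shade. The active photoreceptors also restrain the COP1/SPA ubiquitin ligase, which in the dark marks HY5, HYH, CONSTANS and other factors that act in the light for breakdown. Through CONSTANS the same ligase acts on flowering time, so the pathway meets both day length and growth.

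For this pathway the study designed quantitative PCR primers for a SPA3 copy (Bra027259, BrSPA3) and a CRY2 copy (Bra030568, BrCRY2). They are shown because the SPA3 copy carries one of the called changes below and the CRY2 copy an uncalled one. The results of the PCR assays are not reported here. They stand here 5′ to 3′, with no bases marked.
BrSPA3 forward: tgtcagcttgagacagtggctgga
BrSPA3 reverse: agtcggagcaagaagcggactcaa
BrCRY2 forward: aacttagaggattcaatgaagtga
BrCRY2 reverse: accattttccccaaacttgta

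Summed counts ran from 17221386 to 23428420 per library. Libraries of 1 group differed from each other beyond sampling noise (chi-square per degree of freedom 9.30 for 0D Ver and 10.2 for 35D Ver), and libraries of different groups differed more (71.3 to 80.4). Of the genes listed as markers of cold treatment, all 4 copies of the floral repressor FLC fell (log2 fold change -4.17 to -3.82). Both copies of VIN3, which is induced by prolonged cold, rose (3.97 and 2.86). The 13 copies of the leaf markers were abundant except PSBO1 Bra017790, which had 174 to 238. Of the 5 copies of the root markers 4 were under 10 in every library, with EXPA7 and PRP3 at 0.918 to 2.41. The fifth, PYK10 Bra034060, had 15.7 and 37.3 at 0D Ver and 4.62 and 7.34 at 35D Ver and fell (-1.88, adjusted p = 0.00962). It passed the filter on low counts described below only through 0D Ver, so its call is not independent of that filter. Nothing in the labels tells how the replicates were grown apart. The p-values below set each change against the variance between these libraries, which limma moderated across genes.

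The test was limma, run on the log2 of the normalized count plus 1, with Benjamini-Hochberg adjustment of the p-values over all 29691 genes that passed a filter on low counts. A copy is said to have risen or fallen at an adjusted p below 0.05, and all fold changes are those of 35D Ver over 0D Ver. Of the 42 copies 41 passed the filter, the exception being a SPA4 copy. Of these 41, 10 rose (24.4%), 4 fell (9.76%) and 27 were not called. Fewer copies rose without 35D Ver replicate 1, and a smaller share of all tested genes rose in that fit as well. Over all tested genes 21.1% rose and 19.4% fell, so the share of risen copies was close to the background and the share of fallen copies was below it. The criteria of a change of at least 2-fold and a mean normalized count of at least 50 in the higher group were met by 4 risen copies, against 4.3% of all tested genes, and by no fallen copy, against 5.34%. Those 4 were both PHYA copies and both SPA3 copies.

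In 19 of the 41 tested copies each 35D Ver library exceeded each 0D Ver library, where the share over all tested genes was 37.5%. Each was lower in 10 copies, where that share was 35.5%, and in 12 copies the groups overlapped. The median log2 fold change of the 41 copies was 0.17, with a range of -0.78 to 1.81, and that of all tested genes was 0.0075. In bulk shoots, fewer cells of a type and less RNA per cell cannot be told apart.

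**Figure D1:**
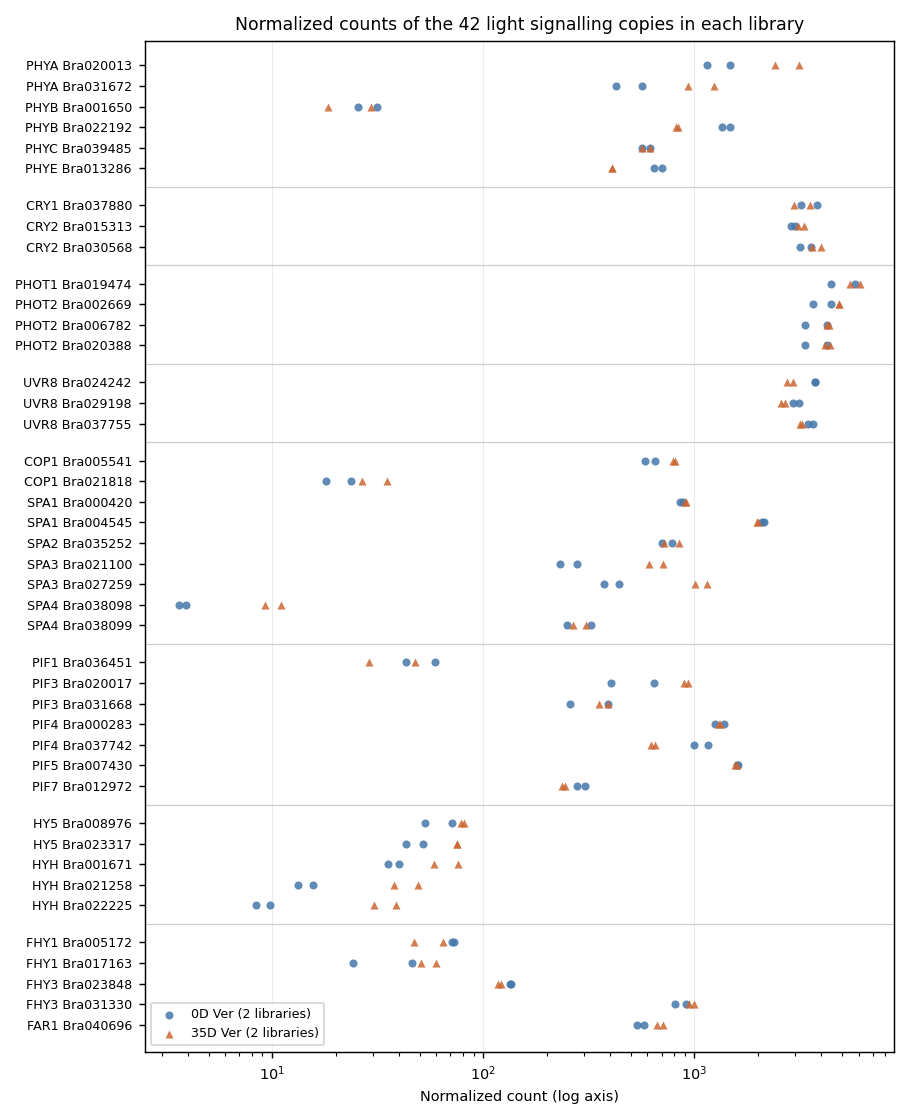
Normalized counts of the 42 copies on a log axis, with 1 point for each library, circles for 0D Ver and triangles for 35D Ver, and horizontal lines between the families. The PHYA and SPA3 triangles stand apart to the right of their circles, those of PHYB Bra022192, PHYE and PIF4 Bra037742 to the left, and those of cryptochromes and phototropins lie on or beside them.

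The phytochromes moved in different directions. Of their 6 copies 2 rose and 2 fell (33.3% each), against 21.1% and 19.4% of all tested genes. PHYA, the receptor for far-red light and very weak light, rose in both copies, a PHYB copy and the PHYE copy fell, and the PHYC copy and the other PHYB copy were not called. The PHYA (AT1G09570) copy Bra020013 had normalized counts of 1473 and 1153 at 0D Ver and of 2407 and 3118 at 35D Ver. The PHYA copy Bra031672 had 566 and 425 at 0D Ver and 933 and 1238 at 35D Ver. In both copies each 35D Ver library was above each 0D Ver library, and replicate 2 was the lower library at 0D Ver and the higher at 35D Ver. Bra020013 rose 2.1-fold (log2 fold change 1.07, SE 0.16, adjusted p = 0.00129). Bra031672 rose 2.19-fold (1.13, SE 0.18, adjusted p = 0.00168). Without 0D Ver replicate 2 the log2 fold changes were 0.89 and 0.92, and without 35D Ver replicate 2 they were 0.89 and 0.93. Both copies kept an adjusted p below 0.05 there, while neither reached a 2-fold change.

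PHYB, the main red light receptor of green plants, and PHYE, which acts beside it in shade avoidance, went the other way. The PHYB (AT2G18790) copy Bra022192 had 1473 and 1358 at 0D Ver and 836 and 816 at 35D Ver. It fell with no overlap of the groups (-0.78, SE 0.11, adjusted p = 0.00073). The PHYE (AT4G18130) copy Bra013286 had 701 and 647 at 0D Ver and 408 and 407 at 35D Ver, and it fell (-0.72, SE 0.11, adjusted p = 0.00125). In both copies the 35D Ver libraries were nearly equal, and leaving out any library kept the call. The other PHYB copy, Bra001650, had few counts, with 25.5 and 31.3 at 0D Ver and 29.6 and 18.4 at 35D Ver, and its groups overlapped (-0.27, 95% interval -0.94 to 0.41). PHYC (AT5G35840), a further red light receptor, had 620 and 567 at 0D Ver and 564 and 616 at 35D Ver in its copy Bra039485, and these overlapped (-0.01, 95% interval -0.27 to 0.25).

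None of the 7 copies of blue light receptors was called by limma, where 21.1% of all tested genes rose and 19.4% fell. Of the 7 copies, 0 had an unadjusted p below 0.05. Cryptochromes act in growth, the clock and flowering, and CRY1 (AT4G08920) was counted through Bra037880 at 3811 and 3199 at 0D Ver and at 2956 and 3552 at 35D Ver. Its groups overlapped (-0.11, 95% interval -0.42 to 0.20). CRY2 (AT1G04400), which stabilises CONSTANS in Arabidopsis, had 3570 and 3183 at 0D Ver and 3616 and 3974 at 35D Ver in the copy with the PCR primers above, Bra030568. There the 35D Ver libraries were both higher, by less than the test could separate (0.17, 95% interval -0.09 to 0.43, adjusted p = 0.272), and the other CRY2 copy, Bra015313, gave 0.12 (adjusted p = 0.382).

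Phototropins direct bending to light, chloroplast movement and stomatal opening. PHOT1 (AT3G45780) had 5757 and 4433 at 0D Ver and 5490 and 6117 at 35D Ver in its copy Bra019474, with overlap (0.20, 95% interval -0.13 to 0.53). PHOT2 (AT5G58140), the receptor for strong blue light, has 3 copies, of which Bra002669 had 4451 and 3668 at 0D Ver and 4835 and 4837 at 35D Ver. Its 35D Ver libraries were nearly equal and above both 0D Ver libraries, and the change was not called (0.26, 95% interval -0.03 to 0.54, adjusted p = 0.13). The copies Bra006782 and Bra020388 had log2 fold changes of 0.18 each and their groups overlapped. Their normalized means at 0D Ver were 3810 and 3812 and at 35D Ver 4279 and 4280, so these copies were nearly equal in count as well as in change. How reads that fit more than 1 copy were counted is not given in the sources used here, and copies may share reads.

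UVR8 (AT5G63860), which senses UV-B and binds COP1 when active, was lower at 35D Ver in all 3 copies. Bra024242 had 3716 and 3722 at 0D Ver and 2753 and 2943 at 35D Ver, and it fell (-0.39, SE 0.11, adjusted p = 0.0189). Bra029198 had 3149 and 2929 at 0D Ver and 2587 and 2684 at 35D Ver (-0.20, adjusted p = 0.153). Bra037755 had 3644 and 3468 at 0D Ver and 3152 and 3250 at 35D Ver (-0.15, adjusted p = 0.278). The groups did not overlap in any of the 3, and 35.5% of all tested genes had every 35D Ver library lower. Only Bra024242 passed the test. Its call ended without 0D Ver replicate 1 (adjusted p = 0.0718), 0D Ver replicate 2 (0.0743) or 35D Ver replicate 1 (0.081).

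**Figure D2:**
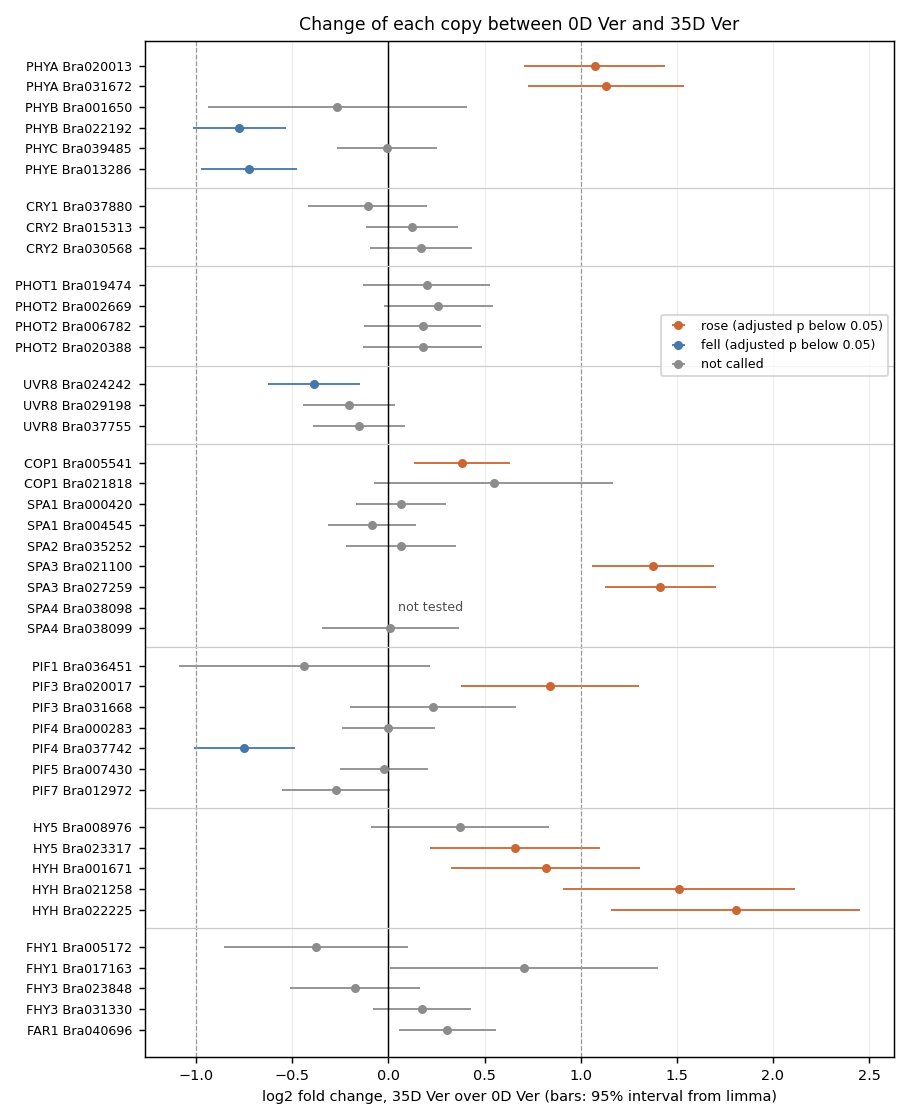
Log2 fold change of each copy, 35D Ver over 0D Ver, with the 95% interval from limma, in orange for risen, blue for fallen and grey for copies not called, and dashed lines at a 2-fold change. SPA3 lies to the right of 1 over the whole interval in both copies, and PHYB Bra022192, PHYE and PIF4 Bra037742 lie to the left of 0.

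Of the COP1/SPA ligase, 3 of 8 tested copies rose by limma and none fell, with 0 lower copies at an unadjusted p below 0.05, where 21.1% of all tested genes rose and 19.4% fell. With 8 copies this is a description of the family only. The rise was led by SPA3 (AT3G15354), whose protein, like the other SPA proteins, works as a partner of COP1. Its copy Bra027259, the one with the PCR primers, had 439 and 373 at 0D Ver and 1012 and 1153 at 35D Ver. Its copy Bra021100 had 279 and 231 at 0D Ver and 612 and 714 at 35D Ver. The groups lay far apart in both copies. Bra027259 rose 2.66-fold (1.41, SE 0.13, adjusted p = 9.2e-05). Bra021100 rose 2.60-fold (1.38, SE 0.14, adjusted p = 0.000161). Leaving out any library left the log2 fold changes at 1.29 to 1.53 and at 1.24 to 1.51.

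The other SPA genes did not pass the test. SPA1 (AT2G46340) had 2140 and 2094 at 0D Ver and 1981 and 2011 at 35D Ver in Bra004545 (-0.09, 95% interval -0.31 to 0.14), and its second copy Bra000420 gave 0.06 (95% interval -0.17 to 0.30). SPA2 (AT4G11110) had 788 and 704 at 0D Ver and 716 and 849 at 35D Ver in Bra035252 (0.07, 95% interval -0.22 to 0.35). SPA4 (AT1G53090) had 249 and 324 at 0D Ver and 307 and 266 at 35D Ver in Bra038099 (0.01, 95% interval -0.35 to 0.36). SPA1 Bra004545 was slightly lower at 35D Ver with no overlap, and the groups of SPA2 and SPA4 Bra038099 overlapped. The SPA4 copy Bra038098 was below the filter, with 3.92 and 3.61 at 0D Ver and 9.24 and 11.0 at 35D Ver.

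COP1 (AT2G32950), the ubiquitin ligase itself, changed less. Bra005541 had 648 and 587 at 0D Ver and 794 and 813 at 35D Ver, and it rose 1.30-fold (0.38, SE 0.11, adjusted p = 0.0232). That call ended without 0D Ver replicate 2 (adjusted p = 0.13), 35D Ver replicate 1 (0.0706) or 35D Ver replicate 2 (0.0941). Bra021818 had 23.5 and 18.0 at 0D Ver and 35.1 and 26.6 at 35D Ver, which did not overlap and did not pass the test (0.55, adjusted p = 0.143).

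Of the 7 PIF copies, a PIF3 copy rose (14.3%), a PIF4 copy fell (14.3%) and 5 were not called. Over all tested genes 21.1% rose and 19.4% fell. PIF4 (AT2G43010), which drives elongation in shade and warmth, has 2 copies. Bra037742 had 1155 and 999 at 0D Ver and 624 and 653 at 35D Ver. Bra000283 had 1382 and 1251 at 0D Ver and 1309 and 1317 at 35D Ver. Bra037742 fell to 0.593 of its 0D Ver mean (-0.75, SE 0.12, adjusted p = 0.00134) and kept that call when any library was left out, while the groups of Bra000283 overlapped (0.00, 95% interval -0.24 to 0.24).

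PIF3 (AT1G09530), which holds back greening in the dark, also has 2 copies. Bra020017 had 643 and 404 at 0D Ver and 938 and 891 at 35D Ver. Bra031668 had 390 and 257 at 0D Ver and 354 and 392 at 35D Ver. In both, 0D Ver replicate 1 was well above replicate 2. Bra020017 rose 1.75-fold (0.84, SE 0.20, adjusted p = 0.0127), with a range of 0.50 to 1.18 when a library was left out and no call without 35D Ver replicate 1 (adjusted p = 0.091) or replicate 2 (0.0742). Bra031668 overlapped and was not called (0.23, adjusted p = 0.358), but passed the test without 0D Ver replicate 1 (0.53, adjusted p = 0.0336).

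PIF1, PIF5 and PIF7 were not called. PIF5 (AT3G59060), the close relative of PIF4, had 1586 and 1610 at 0D Ver and 1595 and 1551 at 35D Ver in Bra007430 (-0.02, 95% interval -0.25 to 0.21). PIF7 (AT5G61270), a shade factor, had 305 and 278 at 0D Ver and 245 and 237 at 35D Ver in Bra012972 (-0.27, adjusted p = 0.111). PIF1 (AT2G20180), which represses seed germination in the dark, had 58.8 and 43.3 at 0D Ver and 28.6 and 47.7 at 35D Ver in Bra036451 (-0.44, adjusted p = 0.252). The groups overlapped in PIF5 and PIF1, and both libraries of PIF7 were lower at 35D Ver.

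HY5 and HYH, the bZIP factors that COP1/SPA marks for breakdown and that turn on light-responsive genes, were higher at 35D Ver in all 5 copies, of which 4 rose. Over all tested genes 37.5% had every 35D Ver library higher and 21.1% rose. All 5 had means below 100, and none met the criteria of fold change and count. HYH (AT3G17609) copy Bra022225 had 9.81 and 8.42 at 0D Ver and 38.8 and 30.3 at 35D Ver. HYH copy Bra021258 had 15.7 and 13.2 at 0D Ver and 49.0 and 37.6 at 35D Ver. HYH copy Bra001671 had 35.3 and 39.7 at 0D Ver and 75.7 and 58.7 at 35D Ver. In all 3 the 35D Ver libraries were higher, with replicate 1 above replicate 2. Bra022225 rose 3.79-fold (1.81, SE 0.28, adjusted p = 0.0015). Bra021258 rose 2.99-fold (1.51, SE 0.26, adjusted p = 0.00249). Bra001671 rose 1.79-fold (0.82, SE 0.22, adjusted p = 0.0168), with no call without 0D Ver replicate 1 (adjusted p = 0.0706) or 35D Ver replicate 1 (0.113). The fold changes of Bra022225 and Bra021258 are past 2-fold, but their means at 35D Ver were 34.5 and 43.3.

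HY5 (AT5G11260) copy Bra008976 had 52.9 and 71.0 at 0D Ver and 78.5 and 80.8 at 35D Ver. HY5 copy Bra023317 had 43.1 and 51.7 at 0D Ver and 74.8 and 75.3 at 35D Ver. The groups did not overlap in either copy. Bra023317 rose 1.58-fold (0.66, SE 0.19, adjusted p = 0.0263), and Bra008976 was not called (0.37, adjusted p = 0.175). The call of Bra023317 ended without 0D Ver replicate 1 (adjusted p = 0.128), 35D Ver replicate 1 (0.0884) or 35D Ver replicate 2 (0.0935).

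FHY1, which carries phytochrome A into the nucleus, and FHY3 and FAR1, the transposase-derived factors that turn FHY1 on, had no copy called by limma among 5. Over all tested genes 21.1% rose and 19.4% fell. Of the 5 copies, 2 (FHY1 Bra017163 and FAR1) had an unadjusted p below 0.05. FHY3 (AT3G22170) had 910 and 812 at 0D Ver and 942 and 1000 at 35D Ver in Bra031330 (0.18, adjusted p = 0.238), and its copy Bra023848 gave -0.17 (adjusted p = 0.375). FAR1 (AT4G15090) had 580 and 535 at 0D Ver and 669 and 710 at 35D Ver in Bra040696 (0.31, 95% interval 0.05 to 0.56, adjusted p = 0.0544). FHY1 (AT2G37678) had 72.6 and 71.0 at 0D Ver and 47.1 and 64.2 at 35D Ver in Bra005172 (-0.38, adjusted p = 0.183). Its other copy, Bra017163, had 46.1 and 24.1 at 0D Ver and 50.8 and 59.7 at 35D Ver (0.71, adjusted p = 0.0968), and passed the test without 0D Ver replicate 1 (1.16, adjusted p = 0.0143). The groups overlapped in none of these 5 copies (3 higher and 2 lower at 35D Ver, against 37.5% and 35.5% of all tested genes), and the sign of the uncalled values differed between the 2 copies of FHY1 and between those of FHY3.

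Whether copies of the same locus responded alike was tested directly, with limma on the difference between a pair of copies within each library. This covered 20 pairs from 14 loci, and 5 pairs (25%) from 4 loci differed, against 21.7% of all 14365 pairs of copies tested. Gene lengths were not used, so a ratio of counts is compared only between libraries. The ratio of PIF4 Bra000283 to Bra037742 was 1.20 and 1.25 at 0D Ver and 2.1 and 2.02 at 35D Ver. The copies differed in log2 fold change by 0.75 (SE 0.04, 95% interval 0.64 to 0.86, adjusted p = 0.00217). This pair differed without any library too, with adjusted p from 0.0244 to 0.0466. The ratio of PIF3 Bra020017 to Bra031668 was 1.65 and 1.57 at 0D Ver and 2.65 and 2.27 at 35D Ver, a difference of 0.61 (SE 0.09, adjusted p = 0.0127). This call ended without 0D Ver replicate 1 (adjusted p = 0.0944), 0D Ver replicate 2 (0.109) or 35D Ver replicate 1 (0.0504).

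UVR8 Bra024242 fell relative to both other UVR8 copies. Its ratio to Bra037755 was 1.02 and 1.07 at 0D Ver and 0.873 and 0.906 at 35D Ver (-0.23, SE 0.03, adjusted p = 0.0123). Its ratio to Bra029198 was 1.18 and 1.27 at 0D Ver and 1.06 and 1.1 at 35D Ver (-0.18, SE 0.04, adjusted p = 0.0383). HYH Bra001671 rose less than Bra022225, with a ratio of 3.6 and 4.71 at 0D Ver and 1.95 and 1.94 at 35D Ver (-0.99, SE 0.21, adjusted p = 0.034). These 3 calls ended whichever library was left out, with adjusted p from 0.0535 to 0.086, from 0.0651 to 0.174 and from 0.0817 to 0.158.

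The remaining 15 pairs were not called. The intervals were narrow for PHYA (-0.06, 95% interval -0.16 to 0.05), SPA3 (-0.04, 95% interval -0.16 to 0.09) and CRY2 (-0.05, 95% interval -0.15 to 0.06). They were wide for PHYB (0.51, 95% interval -0.22 to 1.24) and COP1 (-0.17, 95% interval -0.73 to 0.39), where 1 copy had low counts. The FHY1 pair had the largest difference of these 15 (-1.08, 95% interval -1.89 to -0.28) with an adjusted p of 0.0706.

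**Figure D3:**
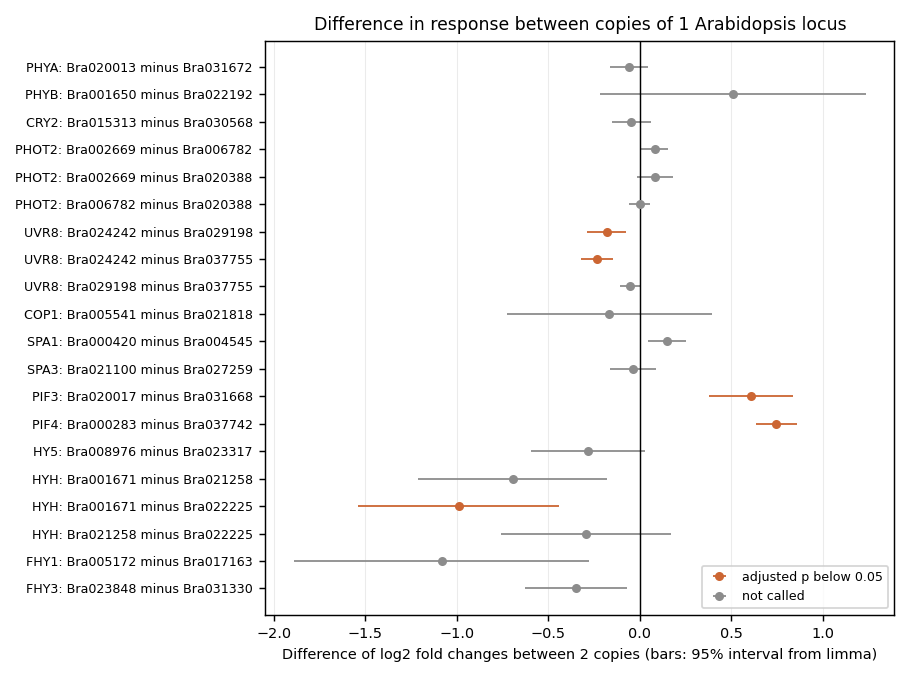
Difference in log2 fold change between the named copies of each locus, first minus second, with the 95% interval from limma, in orange where the adjusted p was below 0.05. The PIF3 and PIF4 pairs lie to the right of 0 at 0.61 and 0.75, and the intervals of the PHYA and SPA3 pairs cross 0.

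Counts summed over the copies of a locus were an added view chosen after seeing the data. If each read fitting several copies was counted once among them, the sums do not depend on how such reads were divided. Whether that was so is not given in the sources used here. Of 24 loci, 6 rose, against 20.6% of 16976 loci, and 2 fell, against 19.6%. The risen loci were SPA3 (1.41, adjusted p = 0.000133), HYH (1.23, adjusted p = 0.00168), PHYA (1.09, adjusted p = 0.00149), PIF3 (0.64, adjusted p = 0.0297), HY5 (0.51, adjusted p = 0.0473) and COP1 (0.39, adjusted p = 0.0219). The fallen loci were PHYB (-0.76, adjusted p = 0.000963) and PHYE (-0.72, adjusted p = 0.00162). The sums of UVR8 (-0.24, adjusted p = 0.0893) and PIF4 (-0.29, adjusted p = 0.064) were not called.

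A further list held 39 other loci, with 71 copies, of which 65 were tested. It joined other genes of the pathway with its light-responsive targets ELIP1, ELIP2, ATHB2, PAR1, PAR2 and IAA29. Of these targets, the ELIP1 and ELIP2 copies and a PAR2 copy rose, and the rest were not called. In the whole list 11 copies rose, 11 fell and 43 were not called, with a median log2 fold change of 0.0078. These are 16.9% in each direction, below the 21.1% and 19.4% of all tested genes. Fewer of these copies fell without 0D Ver replicate 1, 0D Ver replicate 2 or 35D Ver replicate 2. A smaller share of all tested genes fell in those fits as well. The largest increases and decreases are named here. ELIP1, a chloroplast protein made under light stress, had 100 and 80.6 at 0D Ver and 546 and 386 at 35D Ver in Bra033911, and it rose (2.34, SE 0.19, adjusted p = 5.96e-05). ELIP1 Bra001886 had 163 and 144 at 0D Ver and 689 and 519 at 35D Ver, and it rose as well (1.96, adjusted p = 5.35e-05). PIF6, a further member of the PIF family, rose in Bra007660 from 8.82 and 6.02 to 25.9 and 28.4 (1.76, adjusted p = 0.00261) and in Bra003483 from 6.86 and 3.61 to 24.9 and 14.7 (1.74, adjusted p = 0.00958, and 0.0536 without 0D Ver replicate 2). The ELIP1 copies were well counted, while both PIF6 copies were under 30 in every library. Both PIF6 copies passed the filter on low counts only through 35D Ver, so their calls are not independent of that filter. They were not tested when a 35D Ver library was left out.

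Among the decreases was BIC1, an inhibitor of cryptochromes, whose copy Bra019650 had 30.4 and 32.5 at 0D Ver and 12.0 and 9.18 at 35D Ver (-1.49, adjusted p = 0.00351). LAF1, a MYB factor of far-red signalling, had 19.6 and 16.8 at 0D Ver and 7.39 and 5.51 at 35D Ver in Bra019154 (-1.38, adjusted p = 0.0102, and 0.0546 without 35D Ver replicate 2). FHL, which works beside FHY1 in phytochrome A transport, had 74.5 and 79.4 at 0D Ver and 49.0 and 32.1 at 35D Ver in Bra009607 (-0.94, adjusted p = 0.0138). Its adjusted p was 0.0643 without 0D Ver replicate 2 and 0.0746 without 35D Ver replicate 2. BLUS1, a kinase below phototropins in guard cells, had 212 and 159 at 0D Ver and 90.5 and 105 at 35D Ver in Bra039858 (-0.91, adjusted p = 0.00486). All 4 copies fell with no overlap of the groups. LAF1 Bra019154 passed the filter on low counts only through 0D Ver, so its call is not independent of that filter. It was not tested when a 0D Ver library was left out.

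Other groups of genes also moved between the same libraries. Of 20 copies of clock genes 13 rose (65%) and 3 fell (15%), against 21.1% and 19.4% of all tested genes, with the morning gene LHY up by 5.42 and 5.09 on the log2 scale. Their summed normalized counts were 23804 and 23316 at 0D Ver and 43388 and 44760 at 35D Ver. Of the 13 copies of leaf markers 5 rose (38.5%, against the same 21.1%) and none fell, with sums of 644329 and 619092 at 0D Ver and 926588 and 736127 at 35D Ver. The risen copies were of RCA and CAB1, and CAB1 had the highest counts of these markers. The CAB1 copy Bra030181 was not called (0.27, adjusted p = 0.237). RBCS1A (0.28 and 0.34) and LHCB2.1 (0.12) were not called. The PSBO1 copies had lower means at 35D Ver and were not called either (-0.22 to -0.14). The sums of the root markers were 28.4 and 49.3 at 0D Ver and 12.0 and 18.4 at 35D Ver. Flower markers stayed low, with sums of 63.8 to 97.9. All 3 copies of PI rose from between 7.22 and 8.82 to between 17.4 and 24.0. These copies passed the filter on low counts only through 35D Ver, so their calls are not independent of that filter. Both AP3 copies had lower means at 35D Ver. AP3 Bra014822 went from 16.7 and 12.0 to 10.2 and 7.34 and was not called (-0.65, adjusted p = 0.158). AP3 Bra007067, not tested, went from 13.7 and 8.42 to 6.47 and 3.67. The AP1 copies, also not tested, were under 10 in every library and had lower means at 35D Ver. The meristem genes STM and WUS together had 1.96 and 3.61 at 0D Ver and 17.6 and 5.51 at 35D Ver. The part of clock phase or of tissue makeup in the changes of the light signalling genes was not tested.

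**Figure D4:**
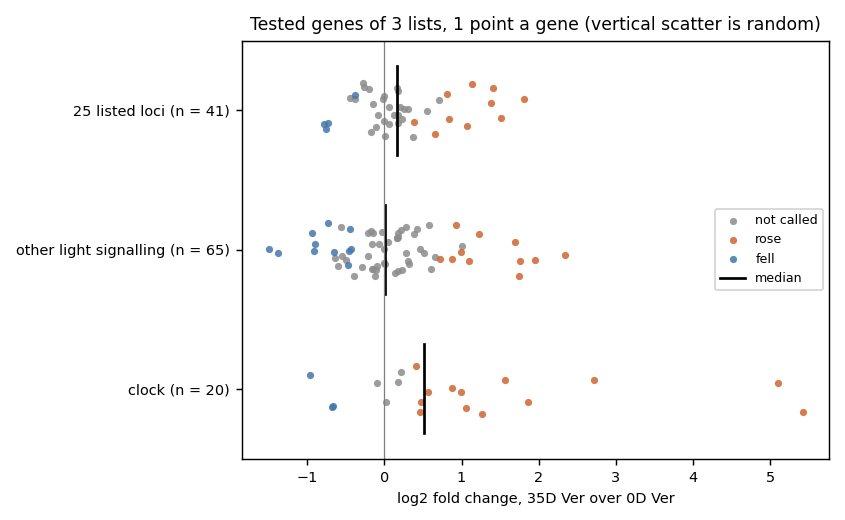
Log2 fold changes of the tested genes of 3 lists, 1 point for each gene, in orange for risen, blue for fallen and grey for not called, with a black line at the median of each list. The 41 copies of the 25 loci stay between -0.78 and 1.81 around a median of 0.17, and clock genes reach 5.42.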

How the data were processed

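SolexaQA was used by the authors for trimming and Bowtie2 for mapping to the coding sequences of *B. rapa* (BRAD gene set, version 1.5). They deposited whole-number read counts per gene, with commas between groups of digits and 1 as the lowest value in every library. These other values, as deposited by the authors, are not normalized, and a gene at 1 may have had no read. Per the labels edgeR was also used, with no role named. How reads of more than 1 gene were counted is not given in the sources used here.

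Commas were removed, and TMM factors (trims of 0.3 and 0.05) turned the values into normalized counts. A gene needed 15 counts in total and, after scaling to the median depth, 10 counts in 2 or more libraries, and such genes were tested with limma 3.58.1 in R 4.3.3 (lmFit, eBayes with trend and robust moderation) on log2(normalized count + 1), which understates the change of low genes. Pairs of copies were tested for loci with 2 to 4 tested copies. No count test was used, because the cells as deposited are not plain numbers and hold no 0, although one could be run once the commas are removed. The functions were tested on simulated data. With 2 libraries against 2, an exact permutation test cannot go below p = 0.333, so only model-based p-values are given. Depth was 17221386 to 23428420 counts per library, and intervals rest on a variance between libraries that limma moderated across genes.

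The members and the gene lists were chosen with earlier results of these data known. All copies are accounted for, with values in every library for copies past the criteria, copies of pairs that differed and the copy with the highest mean of each other locus, and the 4 largest increases and decreases of the other light signalling genes are named. Alternatives were 2 other scalings, 2 other filters, pseudocounts of 5 and 0.1, the replicate number as a block, leaving out each library, a minimum mean of 500 and a log2 fold change of 0.5. Genome coordinates and gene lengths were not used. Figures were drawn with matplotlib 3.10.9.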

Additional observations from a re-analysis of the deposited data

How the results depend on the processing

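Of the 10 risen and 4 fallen light signalling copies, PHYA (both copies), SPA3 (both copies), PHYB Bra022192, PHYE Bra013286, PIF4 Bra037742, HYH Bra021258 and HYH Bra022225 kept their calls whichever library was left out. Leaving out each library left 6 to 10 copies risen, 2 to 6 past the fold change and count criteria, 6 to 9 of the other light signalling genes fallen and 1 to 2 pairs of copies that differed. In these fits the lone library of a group is assumed to vary like the other group. With a log2 fold change of at least 0.5 in place of 1, the criteria were met by 7 risen and 3 fallen copies. The share over all tested genes was not taken at that threshold. Other scalings, filters and pseudocounts gave 9 to 11 risen and 4 fallen copies. Over all tested genes these settings gave 17.5% to 21.1% risen and 16.2% to 20.9% fallen. Low counts limit the precision of HYH, HY5, FHY1, PIF1, COP1 Bra021818 and PHYB Bra001650.

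Libraries were not treated as paired, because the study's methods name no pairing. The deviations of libraries that share a replicate number had a correlation of -0.17 over genes. That value cannot show whether those libraries were grown or processed together. With the replicate block, 9 light signalling copies rose and 3 fell, against 17.1% and 16.2% of all tested genes, and 4 pairs differed. In that fit UVR8 Bra024242 (adjusted p = 0.0663), COP1 Bra005541 (0.0652) and the pair HYH Bra001671 and Bra022225 (0.0792) were not called. With the numbers crossed, an alternative chosen after seeing the data, 12 rose and 4 fell, against 24.8% and 23.1%, and 3 pairs differed. The share over all pairs is not given for either fit.

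Some uncalled values near 0 changed sign. SPA4 Bra038099 had -0.020 with total counts. When a library was left out the log2 fold changes ranged from -0.60 to 0.063 for PHYB Bra001650, -0.076 to 0.057 for PHYC Bra039485, -0.24 to 0.023 for CRY1 Bra037880, -0.0038 to 0.35 for PHOT2 Bra020388, -0.057 to 0.19 for SPA2 Bra035252, -0.18 to 0.19 for SPA4 Bra038099, -0.072 to 0.53 for PIF3 Bra031668 and -0.078 to 0.069 for PIF4 Bra000283. The differences between copies ranged from -0.10 to 0.0099 for CRY2 Bra015313 minus Bra030568, -0.37 to 0.045 for COP1 Bra005541 minus Bra021818 and -0.024 to 0.026 for PHOT2 Bra006782 minus Bra020388.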

Other observations

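The copies named here, from the list of other light signalling genes, were chosen after their values were seen. HY1, the heme oxygenase that makes the precursor of the phytochrome chromophore, has 2 copies. Bra012054 had 1426 and 1548 at 0D Ver and 1138 and 1063 at 35D Ver, and it fell (log2 fold change -0.43, adjusted p = 0.0123). Bra040771 had 477 and 519 at 0D Ver and 1050 and 1074 at 35D Ver, and it rose (1.09, adjusted p = 0.000145). The copies differed by -1.53 (SE 0.05, 95% interval -1.67 to -1.39, adjusted p = 0.000903). The call of Bra012054 ended without 0D Ver replicate 2 (adjusted p = 0.0715) or 35D Ver replicate 2 (0.0716), while the difference between the copies kept an adjusted p of 0.0121 to 0.044 whichever library was left out.

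The phytochrome B partner PCH1 rose in Bra001975, from 226 and 212 at 0D Ver to 544 and 483 at 35D Ver (1.23, adjusted p = 0.000158), and TZP, another phytochrome partner, rose in Bra033688 from 173 and 186 to 353 and 363 (0.99, adjusted p = 0.000484). Of the proteins that act with phototropins, RPT2 rose in Bra018309, from 2152 and 1614 to 3082 and 4078 (0.93, adjusted p = 0.00413). Its other copy, Bra022805, was not called (0.58, adjusted p = 0.0812). Among the partners of phototropins NPH3 Bra024285 (-0.47, adjusted p = 0.0113), PKS1 Bra026572 (-0.90, adjusted p = 0.0018) and PKS2 Bra019666 (-0.73, adjusted p = 0.0125) fell. Other copies of these genes were not called, namely NPH3 Bra037773 (-0.09, adjusted p = 0.572), PKS1 Bra017406 (0.05, adjusted p = 0.877) and PKS1 Bra024800 (-0.56, adjusted p = 0.215). The other PCH1 copy tested, Bra013080, was not called either (0.32, adjusted p = 0.0619). Without 0D Ver replicate 1 the adjusted p was 0.0677 for NPH3 Bra024285 and 0.0773 for PKS2 Bra019666, and without 35D Ver replicate 1 it was 0.0587 and 0.0659.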
